A study of Mus musculus with 5 samples.

Results

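Genes of the hypoxia-inducible factor (HIF) pathway outside glycolysis were examined in mouse hepatobiliary organoids, self-renewing epithelial cultures grown here from primary wild-type liver stem/progenitor cells. The genes were a list of 39 symbols that covers the HIF subunits, their oxygen sensors and hypoxia-inducible genes that do not encode glycolytic enzymes, matched by symbol in the deposited count tables. Ero1l is an older name of Ero1a, so the list held 38 genes, all of them found among the 52029 genes of the table that both groups share. The co-cultures were organoids grown with liver endothelial cells and collected at passage 8 on day 10 (3 libraries). The organoids alone were collected at passage 1 on day 10 (2 libraries). Both groups were wild type and are listed with the same medium, advanced DMEM with EGF, nicotinamide, the ROCK inhibitor Y-27632, heparin, ECGS, serum replacement, HEPES, GlutaMAX and the antibiotics Primocin, penicillin and streptomycin. No oxygen level or hypoxia treatment is named in the labels. Passage followed the groups exactly, so passage and co-culture cannot be told apart in any difference given here.

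HIF is a dimer of an oxygen-regulated alpha subunit, encoded by Hif1a, Epas1 or Hif3a, and a constant partner encoded by Arnt. In the presence of oxygen the prolyl hydroxylases encoded by Egln1, Egln2 and Egln3 modify the alpha subunit, the VHL ubiquitin ligase then recognises it, and it is degraded. When oxygen is short the dimer persists and binds hypoxia response elements, whose core reads ACGTG or GCGTG, beside genes for glycolysis, mitophagy, collagen hydroxylation, pH control and feedback on HIF itself. Much of this control acts on the alpha subunit protein, which RNA sequencing does not measure. In the liver, oxygen falls along the sinusoid from the portal to the central side, and HIF activity there has been linked to the handling of glucose, lipids and iron.

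Co-culture libraries M9 and M10 and organoid-alone libraries M11 and M12 share a table of estimated counts. The third co-culture library was deposited separately, on RefSeq genes, and entered no test. The number in its column name is not that of its deposited record, and the record decided its group. Totals ran from 33881617 to 58853737 counts in the co-cultures, the largest in the third library, and were 26466739 and 29195328 in the organoids alone. Mitochondrially encoded genes took 2.16%, 2.07% and 5.93% of counts in M9, M10 and the third co-culture library, against 2.58% and 2.06% in M11 and M12 of the organoids alone. Nothing in the labels ties the libraries of a group to separate cultures, so the p-values reflect library-to-library spread alone, which may be technical. Levels are CPM, read counts set to the same size for every library. Differences are log2 fold changes of co-culture (M9 and M10) over organoids alone (M11 and M12), given with a standard error. A gene was called at an adjusted p under 0.05 in the quasi-likelihood test of edgeR, adjusted by Benjamini-Hochberg over all 15899 tested genes. In bulk RNA, fewer cells of a type and less RNA per cell cannot be told apart.

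In co-cultures M9 and M10, the HIF feedback hydroxylase Egln3, the ankyrin repeat gene Ankrd37 and the mitochondrial genes Bnip3, Fam162a and Ak4 were higher than in the organoids alone by log2 fold changes of 1.85 to 4.70. These 5 were the members called among the 36 that were tested, while 0.994% of all tested genes were called higher. Lox and Tmem45a had too few counts to be tested. No member was called lower by edgeR (0 of 36, against 1.25% of all tested genes). At an unadjusted p under 0.05, 21 members were higher, against 8.42% of all tested genes, and 2 were lower (Hif1a and Plod1), against 9.06%. A log2 fold change above 1 occurred in 16 members, against 6.92% of all tested genes. The median over the tested members was 0.91 on the log2 scale, and over all tested genes 0.0006.

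The number of members called depended on the tool and on single libraries. DESeq2 called 17 members higher, against 4.14% of genes, and 1 lower (Hif1a), against 4.46%. On simulated counts a larger part of its calls was false than with edgeR (52 of 222 against 14 of 162), which bears on every DESeq2 call given here. DESeq2 also recovered more of the simulated 2-fold changes, 56% against 22% for edgeR, and of the 4-fold changes, 90% against 80%. A member near 2-fold that edgeR did not call can therefore be a miss. The simulation need not match the real counts, so its false share does not carry over directly. limma-voom called 3 higher, against 0.642% of genes, and 0 lower, against 1.15%. Without a filter on low counts, edgeR called 14 members higher, against 2.34% of genes, and 1 lower (Hif1a), against 2.58%. When M9 was left out, 20 members were called higher, against 7.74% of genes, and 1 lower (Hif1a), against 7.92%. When M10 was left out, 12 were called higher, against 2.96% of genes, and 1 lower (Rora), against 3.72%. When M11 was left out, 0 members were called, against 0.0702% of genes higher and 0.222% lower, and 16 members were higher at an unadjusted p under 0.05. When M12 was left out, 0 members and 0 genes were called, with 15 members higher at an unadjusted p under 0.05. In a fit of all 5 libraries, 0 members were called, against 0% of genes higher and 0.0136% lower, with 4 members higher at an unadjusted p under 0.05.

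**Figure D1:**
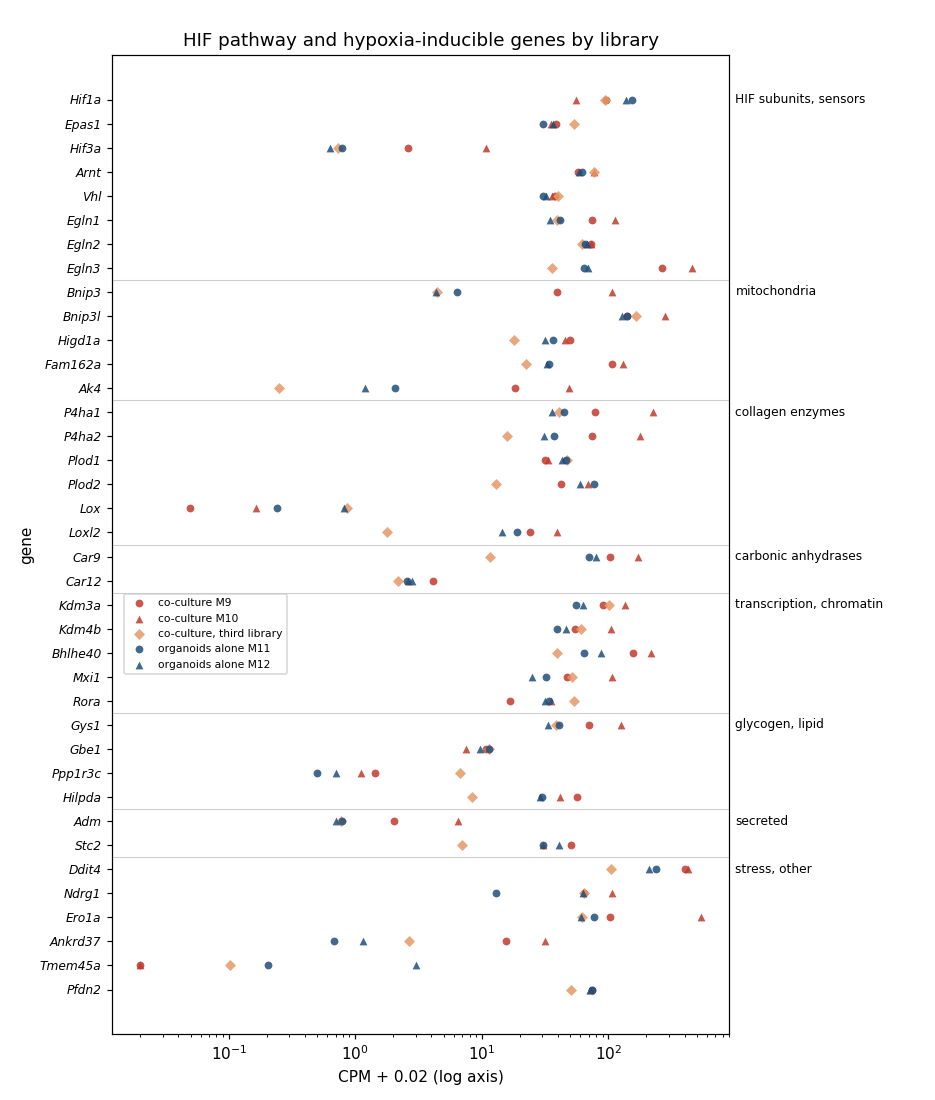
Level of each of the 38 genes in every library, as CPM plus 0.02 on a log axis, with genes in rows grouped by role. Each point is 1 library; red marks co-cultures M9 (circle) and M10 (triangle), orange diamonds the third co-culture library, and blue the organoids alone, M11 (circle) and M12 (triangle). For Egln3, Bnip3, Fam162a and Ak4 the red points lie to the right of the blue ones and the orange diamond does not, while for Ankrd37 all 3 co-culture points lie to the right.

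Ankrd37 encodes a small ankyrin repeat protein used as a marker of the hypoxic response. It had 15.6 and 31.3 CPM in co-cultures M9 and M10 and 2.64 CPM in the third co-culture library, against 0.661 and 1.13 CPM in organoids alone M11 and M12. Every co-culture library was above both libraries of organoids alone, and the third lay nearer to them than to M9 and M10. The mean was 23.4 ± 11.1 CPM in M9 and M10 and 0.896 ± 0.333 CPM in organoids alone (SD, n = 2 each), which gave a log2 fold change of 4.70 ± 0.50 (SE, edgeR adjusted p = 0.0202). The gene lies at chr8:45996902-46005707 on the minus strand (GRCm38) and overlaps Lrp2bp and Ufsp2 on the other strand, and whether the counting used strand is not given in the sources used here.

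Ak4 encodes an adenylate kinase of the mitochondrial matrix. It had 18.4 and 48.6 CPM in co-cultures M9 and M10 and 0.228 CPM in the third co-culture library, against 2.06 and 1.17 CPM in organoids alone M11 and M12. The third library was below both libraries of organoids alone, on the other side from M9 and M10. The mean was 33.5 ± 21.4 CPM in M9 and M10 and 1.61 ± 0.629 CPM in organoids alone (SD, n = 2 each), which gave a log2 fold change of 4.38 ± 0.59 (SE, edgeR adjusted p = 0.0311). Without M10 the log2 fold change was 3.52, and limma-voom did not call the gene (adjusted p = 0.0776). Ak4 lies at chr4:101419277-101466995 on the plus strand (GRCm38).

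Bnip3 encodes a receptor of the outer mitochondrial membrane that marks mitochondria for mitophagy. Its level was 39.5 and 106 CPM in co-cultures M9 and M10 and 4.42 CPM in the third co-culture library, against 6.35 and 4.36 CPM in organoids alone M11 and M12. The third library fell between the 2 libraries of organoids alone. The mean of 72.9 ± 47.3 CPM in M9 and M10 stood against 5.35 ± 1.41 CPM in organoids alone (SD, n = 2 each), with a log2 fold change of 3.77 ± 0.53 (SE, edgeR adjusted p = 0.0338). The call did not hold in limma-voom (adjusted p = 0.0786) or without a filter on low counts (adjusted p = 0.254), and the log2 fold change was 2.89 without M10. Bnip3 lies at chr7:138890836-138909519 on the minus strand (GRCm38), opposite the annotated genes Gm18258 and Gm45507.

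Egln3 encodes a HIF prolyl hydroxylase that is itself a HIF target. It had 266 and 455 CPM in co-cultures M9 and M10 and 35.7 CPM in the third co-culture library, against 64.0 and 69.3 CPM in organoids alone M11 and M12. The third library was below both libraries of organoids alone. The mean was 360.5 ± 133 CPM in M9 and M10 and 66.7 ± 3.73 CPM in organoids alone (SD, n = 2 each), a 5.41-fold difference (log2 fold change 2.43 ± 0.28 SE, edgeR adjusted p = 0.0218). Egln3 lies at chr12:54178981-54203860 on the minus strand (GRCm38).

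Fam162a encodes a mitochondrial protein also known as a HIF-responsive cell death gene. Its level was 107 and 131 CPM in co-cultures M9 and M10 and 22.4 CPM in the third co-culture library, against 33.8 and 32.4 CPM in organoids alone M11 and M12. Libraries of one group lay closest together for this gene among the 5, apart from the third co-culture, which was below both libraries of organoids alone. The mean was 119 ± 16.7 CPM in M9 and M10 and 33.1 ± 0.972 CPM in organoids alone (SD, n = 2 each), which gave a log2 fold change of 1.85 ± 0.17 (SE, edgeR adjusted p = 0.0153). Fam162a lies at chr16:36043761-36071594 on the minus strand (GRCm38) and overlaps Wdr5b on the other strand. Each of the 5 calls was lost without M11, without M12 and in the fit of all 5 libraries, where the log2 fold changes were 4.20 for Ankrd37, 3.80 for Ak4, 3.23 for Bnip3, 1.92 for Egln3 and 1.39 for Fam162a. Estimated counts were not whole for 13 members, among them 4 of these 5 (all but Egln3), so their counts can include reads divided between features.

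The promoters of the 5 called genes are shown with each match to the core letters of the hypoxia response element. Each line gives bases before a RefSeq start that lie outside annotated exons (GRCm38.p6), 5′ to 3′ on the strand of the gene, with capitals for each ACGTG or GCGTG or its reverse complement CACGT or CACGC.
Fam162a: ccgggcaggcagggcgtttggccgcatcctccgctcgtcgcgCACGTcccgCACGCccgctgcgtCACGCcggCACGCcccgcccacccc
Ankrd37: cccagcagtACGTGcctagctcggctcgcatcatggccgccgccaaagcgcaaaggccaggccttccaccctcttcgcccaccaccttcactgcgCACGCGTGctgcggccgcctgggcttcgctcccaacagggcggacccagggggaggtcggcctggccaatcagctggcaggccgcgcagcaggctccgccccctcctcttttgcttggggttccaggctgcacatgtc
Egln3: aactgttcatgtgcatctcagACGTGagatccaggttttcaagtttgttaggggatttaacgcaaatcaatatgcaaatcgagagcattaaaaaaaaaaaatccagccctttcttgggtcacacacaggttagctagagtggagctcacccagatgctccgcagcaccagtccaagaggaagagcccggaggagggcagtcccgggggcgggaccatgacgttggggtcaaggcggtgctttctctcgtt
Ak4: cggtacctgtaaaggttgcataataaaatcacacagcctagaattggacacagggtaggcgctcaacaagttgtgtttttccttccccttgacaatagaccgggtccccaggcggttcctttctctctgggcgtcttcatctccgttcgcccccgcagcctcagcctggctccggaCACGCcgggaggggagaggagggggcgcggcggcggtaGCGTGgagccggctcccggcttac
Bnip3: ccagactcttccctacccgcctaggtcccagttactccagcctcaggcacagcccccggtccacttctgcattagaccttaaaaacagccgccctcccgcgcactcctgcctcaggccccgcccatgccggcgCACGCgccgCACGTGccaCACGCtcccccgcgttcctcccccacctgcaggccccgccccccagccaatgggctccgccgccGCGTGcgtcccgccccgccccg
The stretches lie at chr16:36071595-36071684 for Fam162a, chr8:45999868-46000100 for Ankrd37, chr12:54203875-54204124 for Egln3, chr4:101419039-101419276 for Ak4 and chr7:138909520-138909756 for Bnip3. They hold 4 cores for Fam162a, 3 for Ankrd37, 1 for Egln3, 2 for Ak4 and 5 for Bnip3, where CACGTG counts on both strands because the core ACGTG overlaps its own reverse complement. In windows of 250 bases before to 50 bases after each RefSeq start, 30 of the 38 members had at least 1 window, and 31 of their 40 windows held a core (77.5%). All 8 windows of the 5 called genes held one, some of them overlapping windows of Ak4, as did 23 of 32 windows of the 25 members not called (71.9%). By gene, a core was found in 25 of 30 members (83.3%), among them 20 of the 25 not called. That compares with 66.2% of the 11146 tested genes with a window. A core was present in 43.8% of all 32851 windows and in 60.4% of the 14206 windows of tested genes. The windows also differed in CG dinucleotides, which the core contains: their median number was 25 in members, 20 in windows of tested genes and 7 in all windows. A match describes the letters and does not show binding. Bhlhe40, Plod2, Loxl2, Bnip3l, Kdm4b, Lox, Epas1 and Ndrg1 were not matched to a window.

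Among the 8 genes of HIF subunits and oxygen sensors, Egln3 was the 1 called by edgeR, against 0.994% of all tested genes called higher. The median log2 fold change of the 8 was 0.19. DESeq2 called 3 higher (Egln3, Egln1 and Hif3a), against 4.14% of genes, and 1 lower (Hif1a), against 4.46%. limma-voom called 1 higher (Egln3), against 0.642% of genes. Hif1a had 96.6 and 55.7 CPM in co-cultures M9 and M10 and 93.3 CPM in the third co-culture library, against 154 and 138 CPM in organoids alone M11 and M12. All 3 co-culture libraries were below both libraries of organoids alone, yet the difference of -0.94 ± 0.27 on the log2 scale (SE) was not called (edgeR adjusted p = 0.164). DESeq2 called Hif1a lower (adjusted p = 0.0253), as did edgeR without M9 (adjusted p = 0.000786). Hif1a was the 1 tested member with every co-culture library below both of organoids alone, against 15.9% of the genes joined across tables. It overlaps the annotated genes Gm15283 and Gm49321.

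The other alpha subunits and Arnt were not called by edgeR. Epas1, which encodes the alpha subunit prominent in endothelial cells and in control of iron genes, had 38.4 and 35.3 CPM in co-cultures M9 and M10 and 53.3 CPM in the third, against 30.4 and 36.7 CPM in organoids alone M11 and M12. The libraries of the 2 groups in the shared table overlapped for Epas1. Hif3a, whose product can act as an inhibitor of HIF, had 2.61 and 10.9 CPM in co-cultures M9 and M10 and 0.717 CPM in the third, against 0.771 and 0.617 CPM in organoids alone M11 and M12. M10 stood far above M9 for Hif3a, and the log2 fold change of 3.27 ± 0.77 (SE) was not called (edgeR adjusted p = 0.103). DESeq2 called Hif3a higher (adjusted p = 0.0003). Arnt had 57.2 and 76.7 CPM in co-cultures M9 and M10 and 77.7 CPM in the third, against 62.2 and 58.5 CPM in organoids alone M11 and M12, with overlap between the groups.

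The oxygen sensors other than Egln3 differed less. Egln1, the main HIF prolyl hydroxylase in most tissues, had 74.6 and 113 CPM in co-cultures M9 and M10 and 39.3 CPM in the third, against 41.7 and 34.8 CPM in organoids alone M11 and M12. Its log2 fold change of 1.30 ± 0.24 (SE) missed the threshold (edgeR adjusted p = 0.0636), and the third library lay between the organoids alone. DESeq2 called Egln1 higher (adjusted p = 0.000179). Egln2, a hydroxylase that is not known as hypoxia-inducible, had 72.3 and 73.6 CPM in co-cultures M9 and M10 and 61.6 CPM in the third, against 64.8 and 68.4 CPM in organoids alone M11 and M12. Vhl, the substrate receptor of the ligase, had 37.5 and 35.7 CPM in co-cultures M9 and M10 and 40.3 CPM in the third, against 30.5 and 31.9 CPM in organoids alone M11 and M12. Vhl was above both libraries of organoids alone in every co-culture library, by a log2 fold change of 0.23 ± 0.17 (SE, edgeR adjusted p = 0.555) in the tested pair.

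Of the 5 mitochondrial genes 3 were called higher (Bnip3, Fam162a and Ak4), against 0.994% of all tested genes. All 5 had positive log2 fold changes, against 50.1% of all tested genes, with a median of 1.85. Bnip3l, the mitophagy receptor related to Bnip3, had 141 and 279 CPM in co-cultures M9 and M10 and 164 CPM in the third, against 142 and 128 CPM in organoids alone M11 and M12. M9 lay within the range of the organoids alone and M10 well above it, and the log2 fold change of 0.64 ± 0.32 (SE) was not called (edgeR adjusted p = 0.391). Higd1a, which encodes a respiratory chain factor of the inner membrane, had 49.4 and 45.2 CPM in co-cultures M9 and M10 and 17.9 CPM in the third, against 36.8 and 31.6 CPM in organoids alone M11 and M12. The third library was thus on the other side of the organoids alone from M9 and M10 for Higd1a.

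No collagen-modifying gene was called by edgeR (0 of 5 tested). At an unadjusted p under 0.05, 3 were higher (P4ha1, P4ha2 and Loxl2), against 8.42% of all tested genes, and 1 lower (Plod1), against 9.06%. DESeq2 called 2 higher (P4ha1 and P4ha2), against 4.14% of genes, and limma-voom called 0. P4ha1, a catalytic subunit of collagen prolyl hydroxylase, had 78.3 and 225 CPM in co-cultures M9 and M10 and 41.0 CPM in the third, against 44.9 and 35.7 CPM in organoids alone M11 and M12. P4ha2, the other such subunit listed, had 74.8 and 177 CPM in co-cultures M9 and M10 and 15.9 CPM in the third, against 37.0 and 30.9 CPM in organoids alone M11 and M12. Their log2 fold changes were 1.91 ± 0.49 (SE, edgeR adjusted p = 0.123) for P4ha1 and 1.89 ± 0.41 (SE, edgeR adjusted p = 0.0852) for P4ha2, with M9 and M10 far apart in both. The lysyl hydroxylase gene Plod2 had 41.9 and 68.9 CPM in co-cultures M9 and M10 and 12.9 CPM in the third, against 76.5 and 59.2 CPM in organoids alone M11 and M12. The third library stood apart here, far below the other 4. Plod1, of the same family, had 31.7 and 33.1 CPM in co-cultures M9 and M10 and 47.1 CPM in the third, against 46.2 and 43.1 CPM in organoids alone M11 and M12 (log2 fold change -0.46 ± 0.17 SE, edgeR adjusted p = 0.233). Loxl2, which encodes a collagen cross-linking oxidase, had 24.02 and 39.34 CPM in co-cultures M9 and M10 and 1.78 CPM in the third, against 18.9 and 14.4 CPM in organoids alone M11 and M12. Lox, the founding member of that family, was close to absent, with 1 and 5 counts in co-cultures M9 and M10 and 52 in the third library, which is deeper, against 6 and 23 counts in organoids alone M11 and M12.

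Carbonic anhydrases, enzymes of pH control, gave 0 calls in 2 genes by edgeR and by limma-voom. Car9 was higher at an unadjusted p under 0.05, against 8.42% of all tested genes. DESeq2 called Car9 higher (adjusted p = 0.0365), against 4.14% of genes. Car9 is used as a marker of tumour hypoxia and is also expressed by bile duct epithelium. It had 103 and 172 CPM in co-cultures M9 and M10 and 11.5 CPM in the third, against 69.8 and 79.4 CPM in organoids alone M11 and M12 (log2 fold change 0.89 ± 0.26 SE, edgeR adjusted p = 0.171). The third library was the lowest of the 5 for Car9. Car12 was low in every library, between 2.17 and 4.07 CPM in the co-cultures, against 2.53 and 2.81 CPM in organoids alone M11 and M12.

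The 5 transcription and chromatin genes also gave 0 calls by edgeR and by limma-voom. At an unadjusted p under 0.05, 4 were higher (all but Rora), against 8.42% of all tested genes. DESeq2 called 3 higher (Bhlhe40, Kdm3a and Mxi1), against 4.14% of genes. Bhlhe40, a transcriptional repressor of the circadian and hypoxic responses, came closest. It had 157 and 216 CPM in co-cultures M9 and M10 and 39.4 CPM in the third, against 64.3 and 86.9 CPM in organoids alone M11 and M12 (log2 fold change 1.30 ± 0.23 SE, edgeR adjusted p = 0.0562), and without a scaling factor the adjusted p was 0.0495. The histone demethylase gene Kdm3a had 91.0 and 136 CPM in co-cultures M9 and M10 and 101 CPM in the third, against 55.3 and 63.5 CPM in organoids alone M11 and M12. Kdm4b, another histone demethylase gene, had 54.2 and 104 CPM in co-cultures M9 and M10 and 60.3 CPM in the third, against 39.3 and 46.3 CPM in organoids alone M11 and M12. Mxi1, whose product opposes MYC, had 47.2 and 106 CPM in co-cultures M9 and M10 and 51.8 CPM in the third, against 32.4 and 24.9 CPM in organoids alone M11 and M12. Kdm3a, Kdm4b and Mxi1 were above both libraries of organoids alone in all 3 co-culture libraries, with edgeR adjusted p = 0.113, 0.236 and 0.148 in the tested pair. Rora, a nuclear receptor gene, had 16.8 and 35.1 CPM in co-cultures M9 and M10 and 53.1 CPM in the third, against 33.9 and 31.5 CPM in organoids alone M11 and M12, and overlapped between the groups.

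For glycogen and lipid storage edgeR and limma-voom called 0 of 4 genes. Gys1 and Hilpda were the 2 higher at an unadjusted p under 0.05, against 8.42% of all tested genes. Both were called higher by DESeq2, against 4.14% of genes. Gys1, the glycogen synthase of tissues other than liver parenchyma, had 70.8 and 125 CPM in co-cultures M9 and M10 and 38.8 CPM in the third, against 40.9 and 33.4 CPM in organoids alone M11 and M12 (log2 fold change 1.40 ± 0.30 SE, edgeR adjusted p = 0.0831). Gbe1, the glycogen branching enzyme gene, had 10.8 and 7.54 CPM in co-cultures M9 and M10 and 11.4 CPM in the third, against 11.3 and 9.64 CPM in organoids alone M11 and M12. Ppp1r3c, which encodes a glycogen-targeting subunit of a protein phosphatase, was highest in the third library. It had 1.43 and 1.09 CPM in co-cultures M9 and M10 and 6.73 CPM in the third, against 0.477 and 0.686 CPM in organoids alone M11 and M12. Hilpda, a lipid droplet protein gene that restrains lipolysis, had 56.7 and 41.7 CPM in co-cultures M9 and M10 and 8.39 CPM in the third, against 30.1 and 29.0 CPM in organoids alone M11 and M12. The third library was again the lowest for Hilpda.

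Neither secreted peptide gene was called by edgeR or limma-voom (0 of 2). Adm was higher at an unadjusted p under 0.05, against 8.42% of all tested genes, and called higher by DESeq2, against 4.14% of genes. Adm, which encodes the vasodilator adrenomedullin, had 2.02 and 6.49 CPM in co-cultures M9 and M10 and 0.750 CPM in the third, against 0.771 and 0.686 CPM in organoids alone M11 and M12 (log2 fold change 2.54 ± 0.67 SE, edgeR adjusted p = 0.131). Stc2, a stanniocalcin gene, had 50.4 and 30.4 CPM in co-cultures M9 and M10 and 6.98 CPM in the third, against 30.7 and 40.9 CPM in organoids alone M11 and M12, and overlapped between the groups of the shared table.

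Among the 6 stress-related and remaining genes, 5 were tested and Ankrd37 was the 1 called by edgeR, against 0.994% of all tested genes called higher. DESeq2 called 2 of them higher, against 4.14% of genes, and limma-voom called 1 higher, against 0.642%. Ddit4, an inhibitor of mTOR signalling under hypoxia and energy stress, was the member nearest to the threshold on the uncalled side. It had 405 and 425 CPM in co-cultures M9 and M10 and 105 CPM in the third, against 238 and 210.3 CPM in organoids alone M11 and M12 (log2 fold change 0.89 ± 0.15 SE, edgeR adjusted p = 0.0503). M9 and M10 lay close together and above both libraries of organoids alone, while the third co-culture was below both. Ero1a, the oxidase that forms disulphide bonds in the endoplasmic reticulum, had 104 and 542 CPM in co-cultures M9 and M10 and 61.6 CPM in the third, against 76.4 and 61.2 CPM in organoids alone M11 and M12. Its log2 fold change of 2.23 ± 0.72 (SE, edgeR adjusted p = 0.196) rested on M10, since it was 0.60 without that library and 2.99 without M9. Ndrg1, a stress-responsive gene, had 64.7 and 106 CPM in co-cultures M9 and M10 and 63.8 CPM in the third, against 13.03 and 63.03 CPM in organoids alone M11 and M12. For Ndrg1 it was the organoids alone that were far apart, and the log2 fold change of 1.17 ± 0.69 (SE) was not called (edgeR adjusted p = 0.467). Tmem45a, a transmembrane protein gene, had 0 counts in both M9 and M10 of the co-cultures and 5 in the third, against 5 and 87 counts in organoids alone M11 and M12. Pfdn2, a prefoldin chaperone subunit gene, had 73.6 and 71.7 CPM in co-cultures M9 and M10 and 50.6 CPM in the third, against 73.8 and 71.2 CPM in organoids alone M11 and M12, a log2 fold change of 0.00 ± 0.14 (SE).

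**Figure D2:**
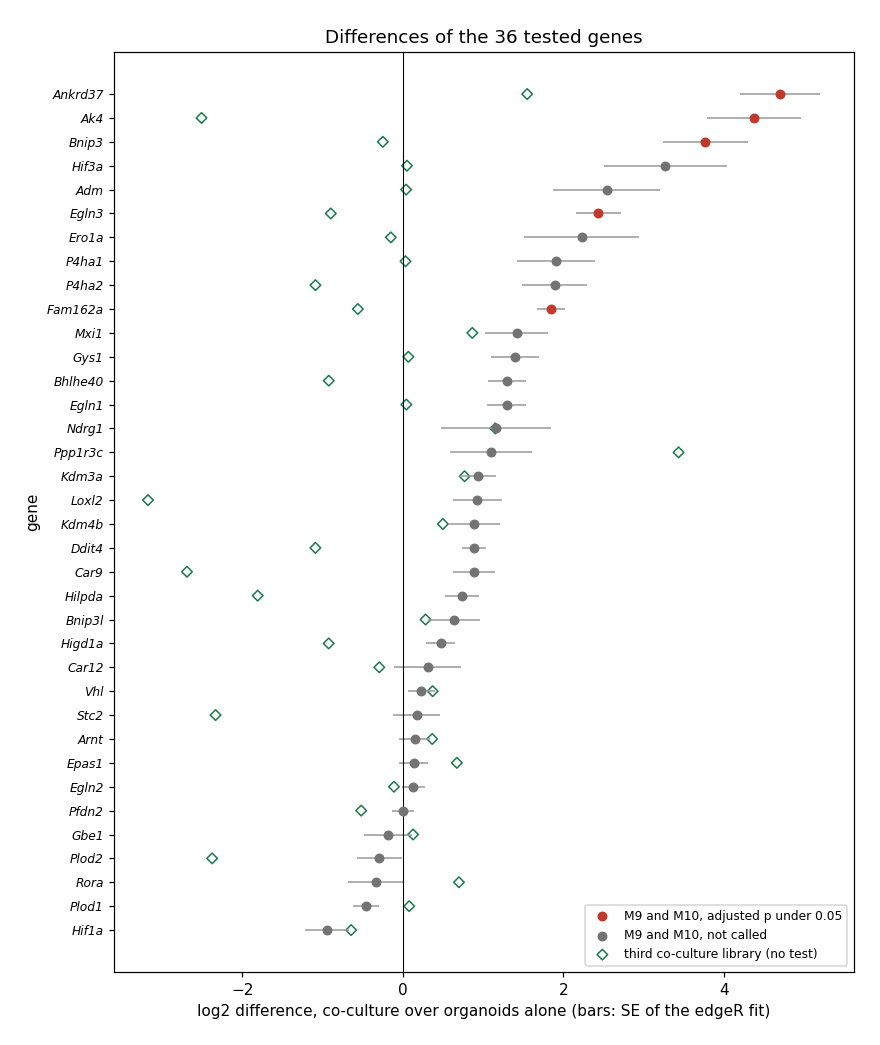
Log2 difference of co-culture over organoids alone for the 36 tested genes, with genes in rows from the highest to the lowest. Filled points are the edgeR log2 fold changes of M9 and M10 over M11 and M12 with bars of 1 standard error, red where the adjusted p was under 0.05, and green diamonds are the third co-culture library over the mean of M11 and M12. The red points run from 1.85 (Fam162a) to 4.70 (Ankrd37), and the diamonds lie on both sides of 0, from -3.18 (Loxl2) to 3.44 (Ppp1r3c).

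Levels can be compared between genes only per length, so CPM were divided by the merged exon length of each gene in GENCODE M21. Ddit4 was the member with the highest level in all 5 libraries, at 231 and 242 CPM per kilobase in co-cultures M9 and M10 and 59.9 in the third, against 136 and 119.8 in organoids alone M11 and M12. Egln3 was at rank 3 and 2 among the 38 members in co-cultures M9 and M10 and 8 in the third, against rank 8 and 7 in organoids alone M11 and M12. Bnip3 was at rank 13 and 8 in co-cultures M9 and M10 and 29 in the third, against rank 27 and 29 in organoids alone M11 and M12. Ankrd37 was at rank 21 and 17 in co-cultures M9 and M10 and 30 in the third, against rank 33 and 32 in organoids alone M11 and M12. These genes stood higher in the order in M9 and M10 than in organoids alone, and in the third co-culture library they stood near their places in organoids alone. Fam162a was at rank 2 or 3 in all 5 libraries. Per length, the lowest member was Tmem45a in all 3 co-culture libraries, Lox in organoids alone M11 and Hif3a in M12.

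The co-cultures M9 and M10 did not carry equal levels of these genes. M10 was above M9 in 26 of 36 tested members, including each of the 5 called, against 49.9% of all tested genes. It was above by more than 1 on the log2 scale in 10 members, against 7.93% of all tested genes. M10 was below M9 by that much in 0 members, against 6.47% of all tested genes. The median of M10 minus M9 was 0.66 on the log2 scale over the members and 0.00 over all tested genes. Ero1a, Hif3a, Adm, P4ha1 and Bnip3 were farthest apart in that order, with log2 differences of 2.39, 2.03, 1.65, 1.52 and 1.43 between M10 and M9. Higher levels in M10 were not particular to the members. Every tested glycolytic HIF target of the list given below was also above M9 in M10, Slc16a3 the most (1.76). Among the stress genes listed below, Chac1 (2.40) and Trib3 (2.09) were as far apart, while others, such as Atf3 (-0.80), went the other way. The organoids alone were closer, since M11 and M12 were apart by more than 1 in 1 member (Ndrg1, by 2.27), against 7.17% of all tested genes, and the median of M12 minus M11 was -0.10. Both M9 and M10 were above both M11 and M12 in 25 of the 36 tested members, against 24.3% of all tested genes, and below both in 2 (Hif1a and Plod1), against 25.1%, while 9 overlapped.

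**Figure D3:**
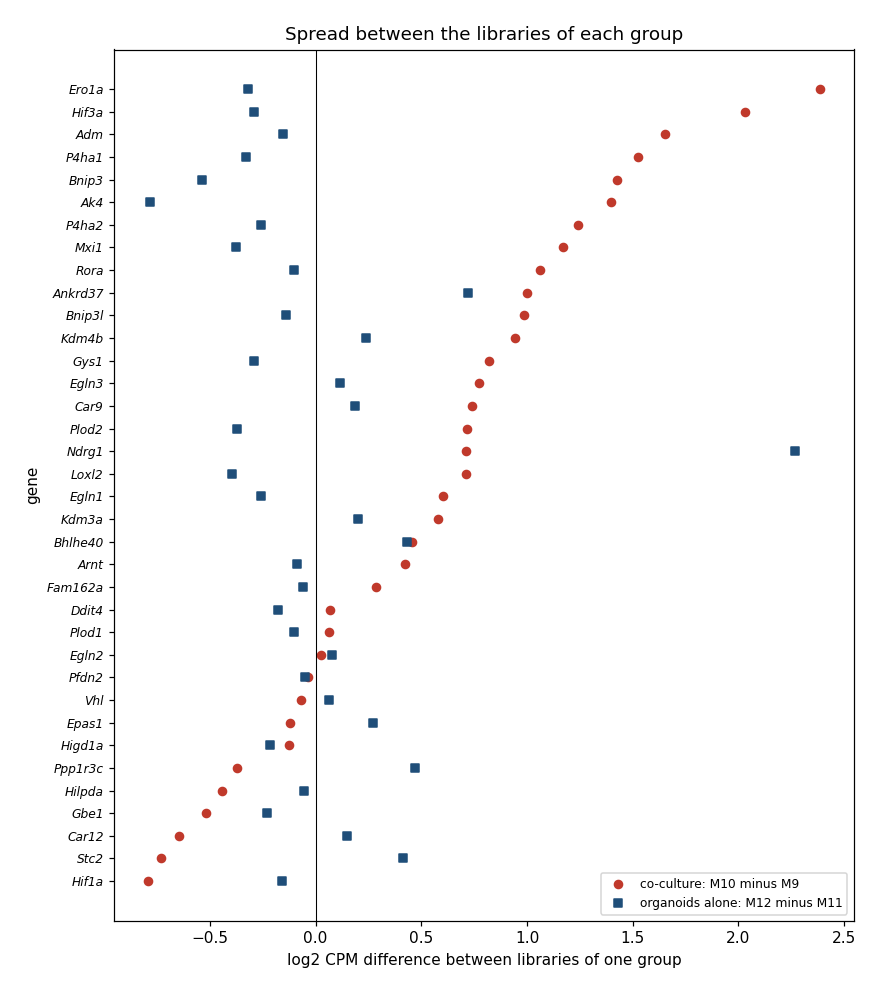
Log2 CPM difference between the 2 libraries of one group in the shared table for the 36 tested genes, with genes in rows. Red circles are co-culture M10 minus M9 and blue squares are organoids alone M12 minus M11. Most red circles lie to the right of 0, up to 2.39 for Ero1a, while the blue squares stay within 1 of 0 except for Ndrg1 at 2.27.

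The third co-culture library did not show the higher levels seen in M9 and M10. Relative to the mean of the organoids alone, 3 of the 38 members were higher by more than 1 on the log2 scale (Ppp1r3c by 3.44, Ankrd37 by 1.55 and Ndrg1 by 1.15), against 16.9% of 14776 genes joined across the tables. Another 9 were lower by more than 1, against 15.8% of those genes. They were Loxl2 (log2 difference -3.18), Car9 (-2.69), Tmem45a (-2.65), Ak4 (-2.51), Plod2 (-2.38), Stc2 (-2.33), Hilpda (-1.81), Ddit4 (-1.09) and P4ha2 (-1.09). The remaining 26 lay within 1, and the median over members was -0.04, against 0.03 over the joined genes. Its value was above both libraries of organoids alone in 14 members, against 45.8% of the joined genes, below both in 17, against 43.4%, and between them in 7. Of the 25 tested members in which M9 and M10 were above both libraries of organoids alone, the third was above both in 7, below both in 11 and between them in 7. The 7 were Vhl, Kdm3a, Kdm4b, Mxi1, Ppp1r3c, Ndrg1 and Ankrd37. Thus 7 of the 36 tested members were above in all 3 co-culture libraries, against 15.3% of the joined genes. That share is not limited to genes above in M9 and M10, which were 24.3% of all tested genes, so it is no background for the 7 of 25. With 1 library in its table and another annotation, these differences have no test, and annotation, library number and culture cannot be told apart in them.

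Of the glycolytic HIF targets, listed for comparison, 9 of 19 tested were called higher in M9 and M10, against 0.994% of all tested genes. None was called lower, against 1.25%, and all 19 had positive log2 fold changes with a median of 1.55. The lactate transporter gene Slc16a3 had a log2 fold change of 5.76 ± 0.66 (SE, edgeR adjusted p = 0.0216), the phosphoglycerate kinase gene Pgk1 2.16 ± 0.23 (adjusted p = 0.0203), the phosphofructokinase gene Pfkl 1.995 ± 0.25 (adjusted p = 0.0258) and the lactate dehydrogenase gene Ldha 1.72 ± 0.16 (adjusted p = 0.0162). In the third library, 8 of the 19 were lower than the organoids alone by more than 1 on the log2 scale, against 15.8% of the joined genes. None was higher by that much, against 16.9%, and the median was -0.40. Pdk1, Pfkfb3 and Pfkfb4 were above both libraries of organoids alone, Aldoc lay between them, and all the rest were below both. As for the members, 0 glycolytic genes were called when M11 or M12 was left out or all 5 libraries were used, against 17 when M9 was left out and 15 when M10 was.

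The other known HIF targets did not go one way. Of 21 tested, edgeR called 0 higher, against 0.994% of all tested genes, and 3 lower, against 1.25%. Their median was -0.13. The inducible nitric oxide synthase gene Nos2 had 21.2 and 17.9 CPM in co-cultures M9 and M10 and 15.0 CPM in the third, against 212 and 175 CPM in organoids alone M11 and M12 (log2 fold change -3.31 ± 0.19 SE, edgeR adjusted p = 0.0069). Every co-culture library was far below both libraries of organoids alone for Nos2. The stanniocalcin gene Stc1 was lower by a log2 fold change of -1.48 ± 0.20 (SE, edgeR adjusted p = 0.0312) and the growth factor binding protein gene Igfbp3 by one of -1.37 ± 0.19 (SE, edgeR adjusted p = 0.0345). At an unadjusted p under 0.05, 4 of the 21 were higher, against 8.42% of all tested genes, and 7 lower, against 9.06%. With DESeq2 the calls were 3 higher, against 4.14% of genes, and 7 lower, against 4.46%. With limma-voom there were 3, each of them lower, against 1.15% of genes. The number called lower was 1 when M11 was dropped or all 5 libraries were used, 0 when M12 was dropped, and 6 when either M9 or M10 was dropped.

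HIF cofactors and regulators gave 0 calls in 16 tested genes by edgeR, DESeq2 or limma-voom, with a median log2 fold change of 0.15. At an unadjusted p under 0.05, 2 were higher, against 8.42% of all tested genes. The 2 with the highest counts were Rack1, a scaffold protein gene, with 0.04 ± 0.15 (log2 fold change ± SE), and Os9, an endoplasmic reticulum lectin gene, with 0.17 ± 0.19. Targets of ATF4 and of the unfolded protein response, stress pathways that share Ddit4 and Stc2 with HIF, gave 0 calls in 18 tested genes. There were 2 higher at an unadjusted p under 0.05, against 8.42% of all tested genes. DESeq2 called 1 higher, against 4.14% of genes, limma-voom called 0, and the median log2 fold change was 0.21. The 2 stress genes with the highest counts, the chaperone genes Hspa5 and Hsp90b1, had log2 fold changes of -0.11 ± 0.15 and -0.11 ± 0.14 (SE). Of the 18 stress genes 12 had positive values, the largest being 1.85 ± 0.52 for Vldlr, 1.73 ± 0.77 for Chac1 and 1.26 ± 0.65 for Trib3. Vldlr was above both libraries of organoids alone in every co-culture library. Without M9, 2 cofactors were called higher and 1 lower, and 6 of the stress genes were called higher.

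**Figure D4:**
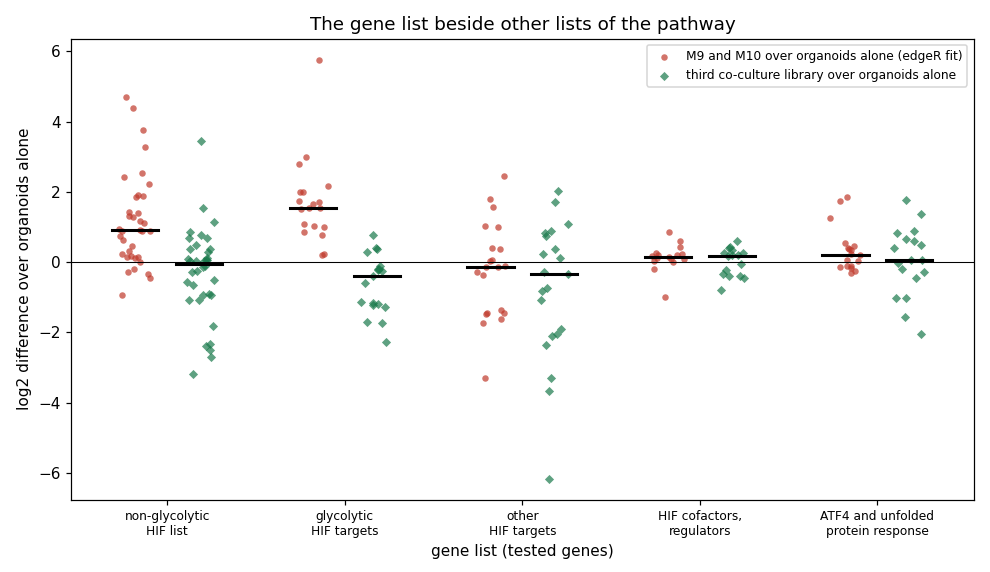
Log2 difference over organoids alone for the tested genes of 5 lists, side by side on the horizontal axis. Red circles are the edgeR log2 fold changes of co-cultures M9 and M10, green diamonds are the third co-culture library, each point is 1 gene, and black lines are medians. In M9 and M10 the medians are 0.91 for the non-glycolytic HIF list and 1.55 for the glycolytic targets, against -0.13, 0.15 and 0.21 for the remaining lists, and in the third library they lie between -0.40 and 0.19.

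Markers of cell types were read beside these values. Over all tested genes, edgeR called 0.994% higher and 1.25% lower, and DESeq2 4.14% and 4.46%. At an unadjusted p under 0.05, the shares were 8.42% higher and 9.06% lower. The epithelial marker Epcam had 635 and 529 CPM in co-cultures M9 and M10 and 502 CPM in the third, against 618 and 713 CPM in organoids alone M11 and M12. Of 10 biliary progenitor markers 3 were called higher (Prom1, Krt7 and Krt19) and 0 lower, with 1 lower at an unadjusted p under 0.05, 1 called lower by DESeq2 and 0 by limma-voom. Their summed level was 7337 to 11370 CPM in the co-cultures, lowest in the third, against 7404 and 9188 CPM in organoids alone M11 and M12. Endothelial markers were low although the co-cultures held liver endothelial cells by label. The 14 summed to 14.0, 12.2 and 7.76 CPM in co-cultures M9, M10 and the third, against 9.18 and 9.57 CPM in organoids alone M11 and M12, most of it Egfl7. Pecam1 had 0.059, 0.057 and 0.16 CPM in co-cultures M9, M10 and the third, against 0.037 and 0.069 CPM in organoids alone M11 and M12, and Clec4g was at 0 in all 5 libraries. The 3 endothelial genes that could be tested gave 0 calls, with 1 higher at an unadjusted p under 0.05.

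The summed levels of mesenchymal and of macrophage markers were lower in the co-cultures. The 12 mesenchymal markers summed to 2.41, 3.17 and 7.94 CPM in co-cultures M9, M10 and the third, against 27.3 and 84.1 CPM in organoids alone M11 and M12, and Col3a1, Col6a3 and Rgs5 were called lower among 7 tested. The 8 macrophage markers summed to 315, 283 and 412 CPM in co-cultures M9, M10 and the third, against 663 and 587 CPM in organoids alone M11 and M12. Most of this was Cd14, which was called lower together with Lyz2 among 4 tested, while Adgre1 and Clec4f were at 0 in all 5 libraries. The other 2 tested macrophage markers were not called and had positive log2 fold changes, 0.79 for Cd68 and 0.47 for Csf1r, and Csf1r had 31.0 and 52.4 CPM in co-cultures M9 and M10 and 80.9 CPM in the third, against 29.7 and 30.3 CPM in organoids alone M11 and M12. The 12 hepatocyte markers summed to 56.5, 108 and 295 CPM in co-cultures M9, M10 and the third, against 58.9 and 153 CPM in organoids alone M11 and M12. Ttr was most of this except in M12, where Ttr had 42.7 CPM and Alb 50.5 CPM. Fga had 0 and 0.029 CPM in M9 and M10 and 6.42 CPM in the third, against 2.13 and 25.1 CPM in M11 and M12. DESeq2 called 3 of these markers lower and 1 higher. Alb was called lower among 6 tested, with 0.15 and 0.26 CPM in co-cultures M9 and M10, against 16.2 and 50.5 CPM in organoids alone M11 and M12, and with 62.7 CPM in the third co-culture it was above both. When M12 was left out, 0 genes of these marker lists were called, and when M11 was left out 1 mesenchymal and 3 hepatocyte markers were called lower and 0 of the rest. The part of these marker differences in the HIF gene values was not tested.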

How the data were processed

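Per the labels' protocols, total RNA came from a PicoPure extraction, and libraries were stranded and depleted of ribosomal RNA. Per the submitters' processing notes, which give no roles, the builds were mm10 and GRCh37 and the tools StringTie 2.1.3b, HISAT2 2.1.0, Bowtie2 2.3.4.1, FastQC 0.11.7 and Trimmomatic 0.38. Counting tool, strand setting and annotation release were not given in the sources used here. For 4 libraries the deposited values were estimated counts by Ensembl gene ID, according to the column names. Identical repeated rows (73925 rows, 52029 genes) were reduced to 1 per gene, and the counts, not whole in 31.7% of 28691 genes with a count, were rounded. The separate table of the remaining co-culture library held the authors' deposited read counts, whole numbers for RefSeq genes. It was joined by symbol for 30883 genes (97.8% of its counts), taking the Ensembl ID with more counts where a symbol had several.

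The 4 libraries were fitted in R 4.3.3 by edgeR 4.0.16 (TMM scaling after filterByExpr, robust quasi-likelihood, Benjamini-Hochberg at 0.05, common dispersion 0.0695), without covariates. The SE is the absolute log2 fold change over the square root of F. CPM of the third library were scaled over all 5 libraries and set on the scale of the shared table, and its log2 differences use a prior count of 2 and are taken from the M11 and M12 mean on the log2 scale. Its background is over joined genes with a mean of at least 10 counts. The steps were tested on simulated counts with known changes. False calls there were 14 of 162 for edgeR, 52 of 222 for DESeq2 and 13 of 158 for limma-voom. Of the simulated 2-fold changes, 22%, 56% and 20% were recovered, in the same order. As alternatives, the fit was repeated with limma-voom (limma 3.58.1), DESeq2 1.42.0, other filters and scalings, with each library dropped in turn and with all 5 libraries. Dropping a library leaves a lone one in its group, and its spread is then assumed to equal that of the other group. Gene positions and exon lengths are from GENCODE M21 (GRCm38) and promoters from RefSeq (GRCm38.p6). Values are per gene, with exons and UTRs counted together.

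The members and lists were chosen with earlier results of these data known, so no set test was made and counts of members are descriptions. Every member is named. Of each other list, up to 4 called genes by smallest p are named, or, without calls, the 2 with the highest counts. Further genes of these lists are named where they differ from those.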

Additional observations from a re-analysis of the deposited data

How the results depend on the processing

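Counts of calls moved strongly with the tool and the library. edgeR called 356 genes in all, 5 members higher, 0 members lower and 21 genes over the other lists. DESeq2 called 1314, 17, 1 and 42 of these in that order, and edgeR without a low-count filter called 1404, 14, 1 and 37. limma-voom called 3 members higher. With all 5 libraries the counts were 2 genes, 0 members higher and 1 list gene. Leaving out 1 library gave 0 (without M12) to 2619 (without M9) genes, 0 to 20 members higher, 0 to 1 lower, and 0 to 46 list genes. RLE or upper-quartile scaling, no scaling and a filter at 1 CPM kept these counts within 1.5-fold. The median log2 fold change of the members was 0.53 with all 5 libraries and ran from 0.60 (without M10) to 1.13 (without M9).

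Called members kept a positive sign in every fit. Uncalled members whose sign changed are given with their range over the fits that leave out 1 library: Arnt -0.073 to 0.36, Plod2 -0.69 to 0.034, Car12 -0.044 to 0.61, Rora -0.96 to 0.11, Gbe1 -0.46 to 0.053, Stc2 -0.22 to 0.50 and Pfdn2 -0.024 to 0.036. With all 5 libraries Rora was 0.10, Stc2 -0.29 and Pfdn2 -0.15, and without a scaling factor Pfdn2 was -0.039. The cause was not tested. In the third library the members' median of -0.04 became 0.0080 by total counts, 0.022 against M12 and -0.12 against M11, while 3 to 4 members stayed higher by more than 1. The share of promoter windows with a core was 75% in the 250 bases before the start. No paired analysis was possible because the columns carry library numbers and not the labels' replicate numbers. Counting error adds to the spread between libraries in members with few counts, such as Ppp1r3c with 13 and 20 in organoids alone M11 and M12.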
